A study of Mus musculus with 33 samples.

Results

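The step from paraxial mesoderm (PM) to the first 6 h of tendon and fibrocartilage induction was examined in 9 of the 33 libraries of the series, 3 of PM and 6 of induced cells. The members were taken from the sample labels: the 3 PM replicates of D0 (D6 of the protocol), the 3 CD1530 replicates and the 3 AGN 193109 replicates of D0.25 (D6.25). All cells came from mouse embryonic stem cells derived from blastocysts of the ScxGFP reporter mouse, which carries GFP under Scx regulatory sequence. They had been aggregated as embryoid bodies in serum-free medium with the BMP receptor inhibitor LDN-193189 and then given LDN-193189 with CHIR, an agonist of Wnt signalling. The study's methods also describe a PM stage with a retinoid ligand added, and do not state whether the sequenced PM cultures received one. The PM libraries were collected at that point, as embryoid bodies. Both induced groups were plated as monolayers without CHIR or LDN-193189 and received TGFβ1, SAG (an agonist of the hedgehog transducer Smoothened) and FGF2. One group also received CD1530, which activates RARγ, a nuclear receptor of retinoic acid. The other received AGN 193109 (AGN), which lowers the basal activity of these receptors.

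The comparison asks what the induction did in both ligand groups alike. Every 6 h library differs from every PM library in the factors added, in the inhibitor and agonist withdrawn, and in the change from embryoid body to monolayer, and no group was kept in PM medium or as embryoid bodies for 6 h. These differences cannot be told apart here. In bulk RNA, fewer cells of a type and less RNA per cell cannot be told apart either.

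Paraxial mesoderm is the embryonic tissue that segments into somites. Its posterior, unsegmented part is held in an immature state by Wnt and FGF signals and expresses Tbx6 and Msgn1. The ventral part of each somite, the sclerotome, forms under hedgehog signals, expresses Pax1, Pax9 and Nkx3-2, and gives rise to vertebral cartilage. Tendon progenitors arise beside it and express the transcription factor Scx. Each of the pathways manipulated in this protocol has target genes, some of them feedback regulators, that its own transcription factors induce within hours. Among them are Axin2 and Sp5 for Wnt, Gli1, Ptch1 and Hhip for hedgehog, Tgfbi and Smad7 for TGFβ, Id1 and Id3 for BMP, Dusp6 and Spry4 for FGF, and Cyp26a1 and Rarb for retinoic acid.

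The 9 libraries held 18.4 to 22.4 M counts over 17120 genes. Within a group, libraries correlated across genes at a Pearson r of 0.9972 to 0.9977 and no pair of their columns was identical. Markers of the labelled tissue were detected in every PM library, most of them at low levels. Levels are given as CPM, counts scaled to the library total with TMM factors. In PM (mean ± SD, n = 3) T was at 79.0 ± 4.0 CPM, Tcf15 at 14.1 ± 0.44, Tbx6 at 9.56 ± 0.77, Meox1 at 5.91 ± 0.95 and Msgn1 at 3.38 ± 0.61. The median gene was at 16.0 CPM in PM, above each of these markers except T. Pluripotency genes were also present in PM, with Pou5f1 at 701 ± 8.2 CPM, Sox2 at 536 ± 6.4 and Nanog at 466 ± 7.6. The share of counts from mitochondrially encoded genes was 1.08% to 1.62% in PM and 0.84% to 0.988% at 6 h.

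The response was broad and had the same direction in both ligand groups. Against PM, 12249 of 17120 genes (71.5%) were called over both ligands together at an adjusted p under 0.05, 6203 higher (36.2%) and 6046 lower (35.3%). CD1530 alone gave 11607 calls and AGN alone 11667. In both ligands and the same direction, 10664 genes (62.3%) were called, 5502 higher (32.1%) and 5162 lower (30.2%), and 3 genes were called in opposite directions. The ligand groups are compared with the same 3 PM libraries, so the second is not an independent repeat of the first. All 6 induced libraries lay above all 3 PM libraries for 33.1% of genes and below them for 31.3%. The genes called in both ligands are hereafter said to have risen or fallen.

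The larger changes were mostly rises. With a change of 1 or more on the log2 scale in each ligand, 2073 genes were higher (12.1% of those tested) and 540 lower (3.15%), so 79.3% of these 2613 genes rose. At least 4-fold in each ligand, 783 genes rose and 45 fell, and at least 8-fold, 332 rose and 2 fell. The median gene did not move, with a log2 fold change of 0.000666 over all genes. The median log2 fold change was 0.801 among all genes that rose and fell by 0.447 among those that fell. Genes with a large rise started low. Their median level in PM was 1.75 CPM, against 16.0 CPM over all genes, and it was 7.72 CPM at 6 h. In 163 of the 2073 genes no PM library exceeded 3 counts, and in 30 no PM library held any, so the fitted fold changes of these genes are imprecise. The genes with a large fall had a median of 7.12 CPM in PM and 2.44 CPM at 6 h. Of the genes with a large rise 92.1% were protein coding and 5.84% long non-coding RNAs, against 79.8% and 11.5% of those with a large fall and 83.7% and 3.84% of all genes.

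**Figure D1:**
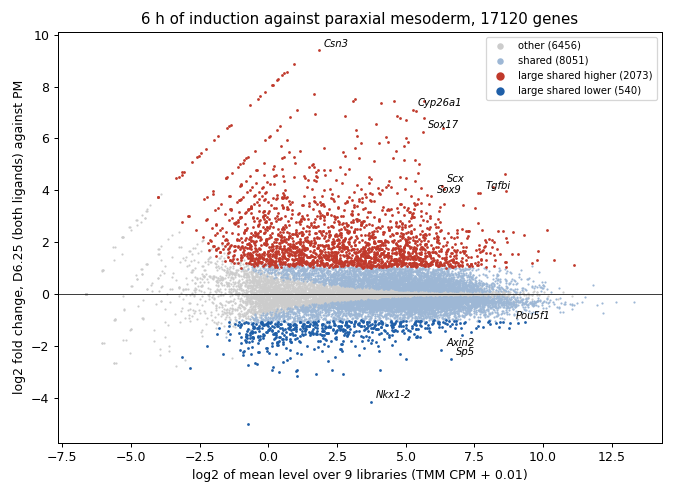
The log2 fold change of 6 h of induction over both ligands against PM (vertical axis) is plotted against the log2 of the mean level over the 9 libraries in TMM CPM (horizontal axis), 1 point per gene. Red points are the 2073 genes with a large rise in both ligands, dark blue points the 540 with a large fall, and light blue points the other genes called in both. The red points extend to higher absolute values than the dark blue points, above all at low levels.

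Of the genes at the edge of this class, chosen by their distance from a log2 fold change of 1, Abca5 (1.06 ± 0.08, SE, over both ligands) and Gpr161 (1.02 ± 0.11) lay just inside it, and Ppp1r13b (1.01 ± 0.09) and Ptgir (1.03 ± 0.22) lay just outside it because one of their ligands gave a value under 1.

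Promoter sequences of 3 pathway targets are shown because their levels moved with large changes and their upstream sequence holds a motif of a factor of that pathway. They were chosen for holding one: the motif was in the windows of 1 of 8 retinoic acid receptor targets (Cyp26a1), 1 of 8 Wnt targets (Sp5), 1 of 4 Notch targets (Hey2), 0 of 4 hedgehog targets, 0 of 4 TGF-β targets and 0 of 9 BMP targets that had a RefSeq window. For the receptor repeat only AGTTCA and AGGTCA half-sites were searched for. The Rarb window holds GGTTCA and AGTTCA with 5 bases between them, a pair that this search did not count. Each is the 250 bases before the RefSeq start on GRCm38.p6, written 5′ to 3′ on the strand of the gene, with motif matches in capitals. Cyp26a1 (chr19:37697558-37697807, plus strand), an enzyme that degrades retinoic acid, holds on its opposite strand a pair of AGTTCA half-sites with 5 bases between them, the direct repeat that retinoic acid receptors bind. Sp5 (chr2:70474673-70474922, plus strand), a transcription factor induced by Wnt, holds CTTTGAT, the core of TCF/LEF sites, and a GTGGGAA site of the Notch factor CSL on the opposite strand. Hey2 (chr10:30842784-30843033, minus strand), a Notch target, holds GTGGGAA on the opposite strand.
Cyp26a1: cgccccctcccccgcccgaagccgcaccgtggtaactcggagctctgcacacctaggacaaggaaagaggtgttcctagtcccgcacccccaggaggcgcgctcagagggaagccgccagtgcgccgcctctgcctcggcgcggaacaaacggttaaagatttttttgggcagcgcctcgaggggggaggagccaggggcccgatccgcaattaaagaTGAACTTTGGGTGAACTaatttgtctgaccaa
Sp5: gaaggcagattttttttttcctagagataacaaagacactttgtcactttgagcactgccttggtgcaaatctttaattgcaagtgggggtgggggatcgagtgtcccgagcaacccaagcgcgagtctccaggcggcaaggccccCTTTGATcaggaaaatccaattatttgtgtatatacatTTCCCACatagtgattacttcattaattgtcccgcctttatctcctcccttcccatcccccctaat
Hey2: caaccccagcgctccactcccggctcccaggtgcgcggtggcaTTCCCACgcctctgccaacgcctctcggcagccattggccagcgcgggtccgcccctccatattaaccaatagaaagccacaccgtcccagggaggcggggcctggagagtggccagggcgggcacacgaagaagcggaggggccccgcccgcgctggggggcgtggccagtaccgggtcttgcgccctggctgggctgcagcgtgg

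Motifs were counted on both strands in all promoters that could be matched by symbol. These were the promoters of 11699 genes in all, 1461 genes with a large rise and 373 with a large fall, and a gene counted once whichever of its starts held the motif. The pair of half-sites (AGTTCA or AGGTCA, 5 bases apart) was in the promoters of 2 of the 11699 genes, and pairs with other half-sites, such as that of Rarb, were not counted. CTTTGAT was present in 2.73% of all genes, 2.4% of those with a large rise and 4.56% of those with a large fall. GTGGGAA was present in 6.35%, 8.35% and 5.9%, and the AP-1 motif TGANTCA in 5.74%, 7.53% and 6.97%. The GLI motif GACCACCCA was present in 0.214%, 0.205% and 0.0%, and the SMAD palindrome GTCTAGAC in 0.239%, 0.205% and 0.804%. The CRE motif TGACGTCA was present in 2.94%, 2.19% and 1.34%. The FOX motif TGTTTAC was present in 2.8%, 3.01% and 4.29%, and the SOX motif ACAATGG in 2.16%, 2.81% and 3.75%. The GATA motif AGATAAG was present in 2.29%, 3.42% and 3.75%, and the CArG motif (CCWWWWWWGG, W for A or T) in 1.34%, 2.12% and 1.34%. These shares are descriptions of short windows, and no test was run on them. Promoters of the genes with a large fall had a median GC content of 55.2% and 7 CpG sites, against 60.6% and 13 for a large rise and 59.6% and 15 over all genes.

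Genes of the unsegmented mesoderm and tailbud fell in part. Of 19 such genes measured, 10 fell and 5 rose, with a median log2 fold change of -0.46 against 0.000666 over all genes. Over all genes 30.2% fell and 32.1% rose in both ligands, shares to be set beside the counts of this list and of every list below. Nkx1-2, a homeobox gene of the tailbud and its bipotent progenitors, had the largest fall among well-counted genes. It was at 34.6, 37.4 and 35.3 CPM in the PM libraries, at 2.03, 1.51 and 1.7 with CD1530 and at 2.38, 2.49 and 2.07 with AGN. All 6 induced libraries lay far below all 3 of PM, a 17.8-fold fall (log2 fold change -4.15 ± 0.11, SE, adjusted p = 1.03e-30). The presomitic regulator Tbx6 was at 10.4, 8.97 and 9.26 CPM in PM, at 3.81, 4.18 and 3.83 with CD1530 and at 3.48, 3.95 and 4.91 with AGN, a 2.37-fold fall (-1.25 ± 0.15, adjusted p = 1.93e-09). Msgn1, a transcription factor of the same cells, fell 3.63-fold from 3.38 ± 0.61 CPM to between 0.594 and 1.12. The caudal homeobox genes Cdx1 and Cdx2 fell 4.63-fold and 4.22-fold. T (Brachyury) fell less, by 1.37-fold, from 79.0 ± 4.0 CPM to 54.9 ± 3.9 with CD1530 and 60.3 ± 1.1 with AGN. The genes of this list that rose included Rspo3, which encodes an enhancer of Wnt signalling (3.4-fold), the mesodermal transcription factor Mesp1 (2.38-fold, adjusted p = 0.00203) and Fgf8 (2.35-fold). Hes7, the oscillating repressor of the segmentation clock, was at 0.573 ± 0.25 CPM in PM and between 0.503 and 0.962 at 6 h (log2 fold change 0.27 ± 0.35, adjusted p = 0.498).

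Somite and sclerotome genes rose. Of 14 measured, 12 rose and none fell, with a median log2 fold change of 2.01. Pax9 was at 0.144, 0.331 and 0.162 CPM in PM, at 4.5, 4.09 and 4.3 with CD1530 and at 4.85, 4.59 and 5.39 with AGN. The groups did not overlap and the rise was 20.9-fold (4.39 ± 0.24), with the limit that an exon of Pax9 overlaps Slc25a21 on the other strand and the library kit did not mark strand. Pax1, its paralogue, rose 8.41-fold from 0.298 ± 0.099 CPM to between 1.88 and 3.02, and Nkx3-2, a repressor that acts downstream of both, rose 9.2-fold to between 0.577 and 1.53 CPM. Foxc2, a forkhead factor of somites and their mesenchyme, rose 6.59-fold to between 32.7 and 37.0 CPM. Meox1, a somite homeobox gene, rose 4.2-fold, and Pax3 rose 1.56-fold. Tcf15, a regulator of somite epithelium, was at 14.1 ± 0.44 CPM in PM and between 13.3 and 16.9 CPM at 6 h (adjusted p = 0.238).

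Most of the listed genes of the lineages the protocol aims for rose within the same 6 h. Of 14 tendon genes 12 rose and none fell (median log2 fold change 1.11), and of 12 cartilage genes 9 rose and none fell (median 2.69). Scx was at 7.18, 6.56 and 5.49 CPM in PM, at 110.0, 111 and 112 with CD1530 and at 121, 120.0 and 119 with AGN. The replicates of each group lay within a few CPM of each other, and the rise was 17.9-fold (4.16 ± 0.06, adjusted p = 1.56e-40). Mkx, a homeobox gene of tendon, rose 6.47-fold from 1.27 ± 0.078 CPM to between 7.47 and 10.2, and Tnc, a matrix glycoprotein, rose 5.4-fold from 83.4 ± 16 CPM to between 350.0 and 529. Sox9, the regulator of chondrogenesis that is also expressed in tendon progenitors, was at 7.08, 6.71 and 5.76 CPM in PM, at 87.9, 88.3 and 81.7 with CD1530 and at 93.3, 88.0 and 93.4 with AGN, a 13.6-fold rise (3.76 ± 0.06). Hapln1, which links proteoglycan to hyaluronan, rose 15.4-fold, and the fibrillar collagen gene Col2a1 rose 7.62-fold. Acan, the main cartilage proteoglycan, was at 1.07 ± 0.017 CPM in PM and between 0.778 and 1.11 at 6 h (adjusted p = 0.382). The late tendon gene Fmod was at 1.2, 0.472 and 0.108 CPM in PM and between 0.128 and 0.625 at 6 h, and it was not called in both ligands. The tendon gene Tnmd and the cartilage genes Matn4 and Cnmd were not called over both ligands together, in the main fit or any alternative.

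**Figure D2:**
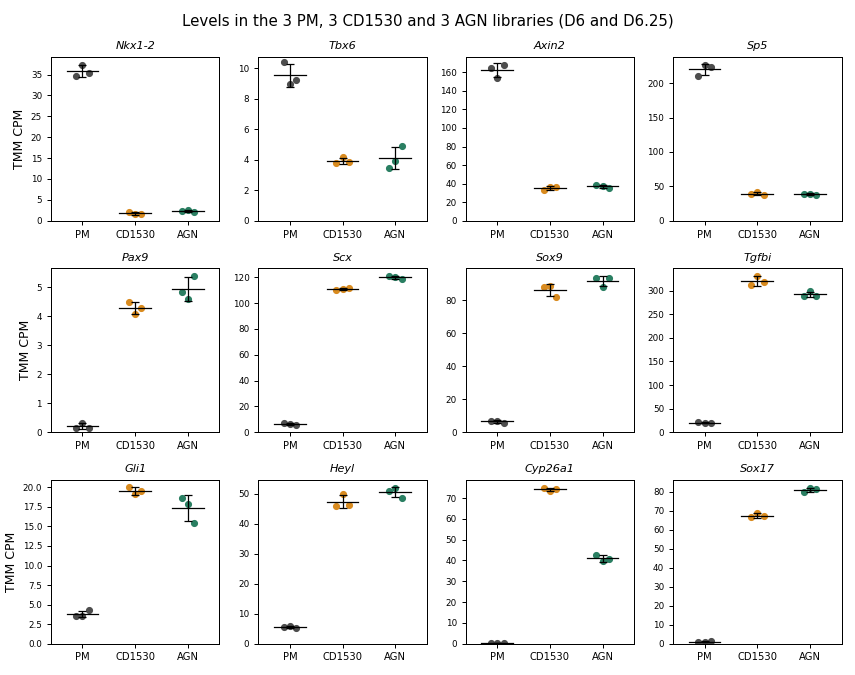
TMM CPM (vertical axes, each from 0) of 12 genes are plotted for the 3 PM libraries, the 3 CD1530 libraries and the 3 AGN libraries at 6 h, with points for libraries, horizontal lines for means and bars for the SD. Nkx1-2, Tbx6, Axin2 and Sp5 are lower in all 6 induced libraries, and the other 8 genes are higher in all 6, from at most 1.24 CPM to at least 66.7 CPM in the case of Sox17.

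Targets of Wnt signalling fell for the most part. The Wnt agonist had been withdrawn at the same time as the culture format and the other factors changed, and the part of each was not tested. Of 12 targets 9 fell and 2 rose (median log2 fold change -0.57). Sp5 was at 211, 226 and 224 CPM in PM, at 38.9, 41.4 and 37.7 with CD1530 and at 39.3, 39.2 and 37.1 with AGN, a 5.67-fold fall (-2.50 ± 0.04, adjusted p = 1.02e-36). Axin2, a scaffold that restrains β-catenin, was at 165, 154 and 168 CPM in PM, at 32.8, 36.0 and 36.3 with CD1530 and at 39.0, 37.3 and 35.8 with AGN, a 4.48-fold fall (-2.16 ± 0.05). Neither gene overlapped between PM and induced libraries. Notum, a secreted enzyme that inactivates Wnt proteins, fell by 1.34 on the log2 scale. Against this direction, the secreted Wnt antagonist Dkk1 rose 16.6-fold, from 2.76 ± 0.4 CPM to between 40.9 and 51.5, and Nkd1 rose by a log2 fold change of 0.28.

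Targets of the hedgehog, TGFβ and FGF pathways rose for the most part, but not all of the standard readouts did. Activators of these pathways had been added along with the other changes of culture, and the part of each was not tested. Of 8 hedgehog targets 6 rose and 1 fell (median log2 fold change 0.69). Gli1, the transcription factor most often used as a readout, was at 3.49, 3.59 and 4.26 CPM in PM, at 20.1, 19.1 and 19.5 with CD1530 and at 18.6, 17.9 and 15.5 with AGN, a 4.89-fold rise (2.29 ± 0.10), although its exons overlap Arhgap9 on the other strand. Hhip, a decoy receptor for hedgehog ligands, rose 11.3-fold from 0.356 ± 0.23 CPM. The receptor Ptch1 rose only 1.26-fold, from 86.7 ± 5.6 CPM to between 99.7 and 117 (0.33 ± 0.07, adjusted p = 0.000168). Boc, a co-receptor, rose by a log2 fold change of 1.38.

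Of 12 TGFβ targets 9 rose and 2 fell (median 0.78). Tgfbi, a secreted matrix protein named for its induction by TGFβ, was at 21.7, 19.6 and 19.7 CPM in PM, at 311, 331 and 319 with CD1530 and at 289, 298 and 289 with AGN. The induced libraries lay between 289 and 331 CPM, a 15.0-fold rise with the smallest adjusted p of the genes named here (3.91 ± 0.04, adjusted p = 9.54e-45). Pmepa1, an inhibitor of TGFβ signalling, rose 4.24-fold. Smad7, the inhibitory Smad, was at 82.7 ± 1.3 CPM in PM, 72.8 ± 4.3 with CD1530 and 80.6 ± 0.41 with AGN, and was not called (-0.11 ± 0.05, adjusted p = 0.0577), though fits of other libraries or scalings moved it to either side of the threshold (adjusted p from 0.00892 to 0.316). Tgif1 and Klf10 fell by 0.33 and 0.26 on the log2 scale.

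Of 12 BMP targets 7 rose and 2 fell (median 0.83), in cultures from which the BMP receptor inhibitor had been withdrawn. The part of that withdrawal in these changes was not tested. Smad6, an inhibitory Smad, rose 3.29-fold and Id1, which blocks basic helix-loop-helix factors, rose 3.06-fold, from 6.55 ± 0.5 CPM to between 18.8 and 21.3. Id3 rose 1.66-fold. Id4 and Msx1 fell by 1.08 and 0.63 on the log2 scale.

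Of 12 feedback genes of FGF and ERK signalling 9 rose and 2 fell (median 0.98). Dusp6, a phosphatase of ERK, was at 78.8, 80.2 and 79.2 CPM in PM, at 285, 278 and 285 with CD1530 and at 254, 246 and 252 with AGN, a 3.35-fold rise. Spry4 rose 2.24-fold and Phlda1 by a log2 fold change of 2.18. Etv5, an ETS factor of the same pathway, was at 506, 494 and 497 CPM in PM and between 254 and 273 at 6 h, a 1.88-fold fall that all 6 libraries showed, while its paralogue Etv4 rose 1.25-fold.

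All 8 Notch targets measured rose (median 0.93). Heyl was at 5.5, 5.76 and 5.22 CPM in PM, at 46.0, 49.9 and 46.2 with CD1530 and at 50.9, 52.0 and 48.7 with AGN, an 8.88-fold rise (3.15 ± 0.07, adjusted p = 1.57e-33). Hey2, whose promoter is shown above, rose 6.96-fold and Hey1 5.33-fold. These 3 genes encode transcriptional repressors of one family.

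Targets of the retinoic acid receptors rose with the inverse agonist as well as with the agonist. Of 12 targets 8 rose in both ligands and 1 fell (median 0.97). Cyp26a1 was at 0.191, 0.52 and 0.485 CPM in PM, at 74.9, 73.3 and 74.2 with CD1530 and at 42.8, 39.8 and 40.5 with AGN. All AGN libraries lay below all CD1530 libraries and above all PM libraries, with a log2 fold change against PM of 7.53 for CD1530 and 6.67 for AGN. Rarb was at most at 0.144 CPM in PM, at 1.26 ± 0.11 with CD1530 and 0.299 ± 0.11 with AGN, where the log2 fold changes were 4.13 and 2.09, and its exons overlap Top2b on the other strand. Cyp26c1 rose by a log2 fold change of 1.88 from 0.21 CPM. Cdx1, which retinoic acid induces, was the member that fell. CD1530 differed from AGN in 8 of these 12 genes, where the share over all genes was 329 of 17120 (1.92%).

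Genes of adhesion and cytoskeleton and targets of YAP, TEAD and SRF rose for the most part. The cells had moved from embryoid body to monolayer at the same time as the factors changed, and the part of each was not tested. Of 18 actin and SRF target genes 16 rose and none fell (median 0.82), of 14 YAP and TEAD targets 10 rose and 2 fell (0.93), of 14 cell-to-matrix adhesion genes 10 rose and 2 fell (0.73), and of 14 genes of cell-to-cell adhesion and epithelial-mesenchymal transition 10 rose and 3 fell (1.39). Ccn1 and Ccn2, matricellular proteins and standard YAP targets, rose 3.05-fold and 2.23-fold. Thbs1 (thrombospondin) was at 11.7, 10.6 and 10.1 CPM in PM and reached a median of 124 CPM and a highest level of 135 over the 6 induced libraries, an 11.2-fold rise. Type IV collagen genes Col4a1 and Col4a2, whose exons overlap at their shared promoter, rose by 2.46 and 2.28 on the log2 scale. On the list of actin and SRF targets Fhl2 (1.91), Cnn2 (1.67) and Tpm4 (1.54) had the largest log2 fold changes.

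The cadherins moved apart. Cdh2 (N-cadherin) was at 34.4, 31.5 and 31.7 CPM in PM, at 177, 185 and 182 with CD1530 and at 186, 185 and 193 with AGN, a 5.67-fold rise (2.50 ± 0.05). Cdh11, a cadherin of mesenchyme, rose 5.59-fold. Cdh1 (E-cadherin) fell 1.42-fold, from 431 ± 15 CPM to 287 ± 3.8 with CD1530 and 322 ± 3.2 with AGN, and Epcam fell 1.36-fold. The epithelial keratin Krt8, on the same list, rose 4.06-fold.

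Immediate early genes split. Exons of Junb overlap Prdx2 on the other strand, and those of Tnc, Notum, Krt8 and Dkc1, described elsewhere, also overlap a gene on the other strand. Of 19 measured, 13 rose and 4 fell (median 0.74). Dusp2 (log2 fold change 3.90), Egr3 (3.85) and Junb (2.42) had the largest rises, and Junb went from 40.4 ± 2.8 CPM to 241 ± 3.8 with CD1530 and 193 ± 3 with AGN. Fos fell 1.71-fold from 10.8 ± 1.4 CPM, Klf4 fell 2.67-fold and Nr4a1 fell by 0.67 on the log2 scale. Egr1 was at 113 ± 13 CPM in PM and between 104 and 112 at 6 h (adjusted p = 0.146), but without PM replicate 1 it was called lower (-0.16, adjusted p = 0.00105).

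Pluripotency genes fell without exception among the 14 listed (median -1.01), by log2 fold changes of -1.12 to -0.456. Pou5f1 (Oct4) was at 701, 709 and 693 CPM in PM, at 346, 320.0 and 321 with CD1530 and at 318, 321 and 319 with AGN, a 2.16-fold fall. Nanog fell 2.09-fold and Sox2 1.91-fold, and Dppa5a and Klf5 fell by 1.12 and 1.11 on the log2 scale. The summed level of the list was 5050 to 5190 CPM in PM and 2560 to 2650 CPM at 6 h.

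Genes of growth and division also fell, by smaller amounts. Of 14 S phase genes 13 fell and 1 rose (median -0.59), of 13 mitosis genes 12 fell (-0.60), and all 12 ribosome biogenesis genes fell (-0.41). The replication factor Mcm3 went from 522 ± 7.9 CPM to 313 ± 7.4 with CD1530 and 316 ± 5.1 with AGN. The licensing factor Cdt1 fell by 0.95, the mitotic cyclin gene Ccnb2 by 0.74 and the pseudouridine synthase gene Dkc1 by 0.75 on the log2 scale. The cyclin gene Ccne2 was the S phase gene that rose (0.26). All 9 mitochondrially encoded genes fell (median -0.58), in the libraries with the lower mitochondrial share given above.

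Stress and metabolic lists are set beside the shares over all genes, of which 32.1% rose and 30.2% fell in both ligands. Of 10 heat shock genes 1 rose and 5 fell (median -0.14), and their summed level was 5870 to 5970 CPM in PM and 4550 to 4760 CPM at 6 h. Of 14 genes of the integrated and endoplasmic reticulum stress responses 5 rose and 6 fell (-0.12), of 12 p53 targets 3 rose and 3 fell (-0.06), of 14 sterol synthesis genes 4 rose and 5 fell (-0.03), of 16 hypoxia and glycolysis genes 8 rose and 5 fell (0.25), and of 10 NF-κB and inflammatory genes 4 rose and 3 fell (0.17). Within them the chaperone gene Hspb1 (-1.11) and the asparagine synthetase gene Asns (-1.08) fell, and the growth factor gene Vegfa (1.43) and the stress factor gene Xbp1 (1.07) rose.

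**Figure D3:**
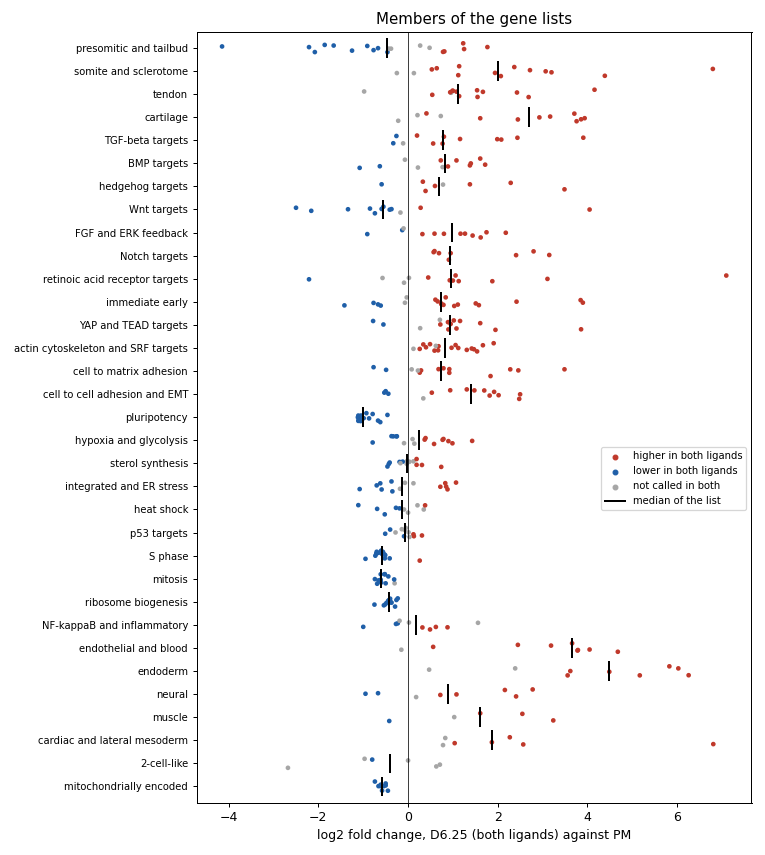
The log2 fold change over both ligands against PM (horizontal axis) is plotted for the members of 33 gene lists (rows), with red points for genes higher in both ligands, blue for genes lower in both, grey for genes not called in both, and a black bar at the median of the list. The pluripotency, mitosis, ribosome biogenesis and mitochondrially encoded lists lie left of 0, as do the S phase genes other than Ccne2 (0.26), and the endoderm and endothelial lists have the medians farthest right, at 4.49 and 3.66.

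Many markers of cell types outside the paraxial mesoderm rose too. The shares over all genes, to be set beside the counts below, were 32.1% that rose and 30.2% that fell in both ligands. Of 9 endoderm markers 7 rose and none fell (median log2 fold change 4.49), and their summed level was 7.11 to 8.66 CPM in PM, 257 to 266 with CD1530 and 287 to 290 with AGN. Sox17, a regulator of endoderm and of endothelium, was at 0.861, 0.803 and 1.24 CPM in PM, at 66.7, 68.7 and 67.0 with CD1530 and at 79.7, 81.9 and 81.3 with AGN, a 76.7-fold rise (6.26 ± 0.13, adjusted p = 1.09e-33). Foxa2, a forkhead factor of endoderm, node and floor plate, rose 65.3-fold to between 45.5 and 50.3 CPM, and Cer1, a secreted inhibitor of Nodal, BMP and Wnt, rose 56.7-fold to between 17.7 and 30.2 CPM. Of 9 endothelial and blood markers 8 rose and none fell (median 3.66), from a summed level of 114 to 123 CPM to 320 to 372 CPM. The remaining member, the endothelial marker Pecam1, was called lower over both ligands together but not in each (log2 fold change -0.147). Cdh5 (VE-cadherin) rose 25.7-fold, Etv2, the initiator of the endothelial fate, 16.5-fold and Tal1 13.8-fold. For 3 erythroid genes outside the list, chosen after values were seen, the log2 fold change was -2.37 for the embryonic globin gene Hbb-y, -1.68 for the anion exchanger gene Slc4a1 and 0.45 for the embryonic globin gene Hbb-bh1, each called in both ligands. Of 7 cardiac and lateral mesoderm markers 5 rose (median 1.87), with Gata5 at 1 count in the 3 PM libraries together and 336 in the 6 induced ones, a ratio of 158 (95% exact interval 28.1 to 6240). Of 8 neural markers 5 rose and 2 fell (median 0.90), with log2 fold changes from -0.952 to 2.78. Among those that rose was Nes, an intermediate filament gene of many progenitors (5.32-fold). Of 5 muscle markers 3 rose and 1 fell (median 1.61), with Des at a log2 fold change of 3.24. Of 6 markers of 2-cell-like cells 1 fell and none rose (median -0.40). The part of such cells in the changes of the other lists was not tested.

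The largest rises among well-counted genes, chosen by size in both ligands with no overlap between groups, were in genes of many kinds. Csn3 (κ-casein) had no count in any PM library and was at 10.7, 8.81 and 7.03 CPM with CD1530 and 1.65, 1.76 and 2.31 with AGN, at least 177-fold above PM with CD1530 and 38.4-fold with AGN when PM is set at 3 counts over its 3 libraries. Akr1c19, an aldo-keto reductase of a gene cluster with close relatives, had 1 count in PM and 610 at 6 h, a ratio of 286 (95% exact interval 51.2 to 11300). Spink1, a secreted trypsin inhibitor, was at 0.526, 0.425 and 0.323 CPM in PM, at 70.1, 72.6 and 70.7 with CD1530 and at 82.0, 81.8 and 82.7 with AGN, a 176-fold rise. Others were the phosphatase gene Ptpn5 (log2 fold change 7.43), the serotonin synthesis gene Tph1 (7.43), the signalling regulator genes Rgs8 (7.38) and Irs4 (7.07), Cyp26a1, the ETS factor gene Ehf (147 times PM with 2 counts in PM, 95% exact interval 40.4 to 1210), the hexokinase family gene Hkdc1 (6.88) and the homeobox gene Barhl2 (6.87). These intervals cover counting error only.

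The largest falls were smaller. After Nkx1-2 came the immune receptor gene Btla (-3.09), the Ras activator gene Rasgrp1 (-3.08), the cation channel gene Trpm1 (-2.95), Khdc1c (-2.91), Ct55 (-2.60), the peptidoglycan recognition gene Pglyrp1 (-2.51), Sp5, the POU factor gene Pou2f3 (-2.41), the embryonic globin gene Hbb-y (-2.37), the phospholipase gene Pla2g1b (-2.30) and Khdc1a (-2.22). Pglyrp1 was at 67.4, 78.6 and 70.8 CPM in PM and between 11.2 and 14.5 in the 6 induced libraries. Trpm1 was at 41.1, 39.4 and 38.4 CPM in PM and between 4.31 and 6.49 at 6 h. Reads of Khdc1a and Khdc1c, and of Hbb-y and the other globins, could be divided between close relatives, so that these values are uncertain.

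The 6 h levels were not the end of the course, and genes with a large rise at 6 h took different paths afterwards. In both ligands 339 of the 2073 genes with a large rise (16.4%) had their highest mean of the 5 induced time points at 6 h, against 19.7% of all genes, and 639 (30.8%) had their lowest there, against 21.6%. In what follows the CD1530 mean is given first and the AGN mean second. Sox17 went from 67.5 and 80.9 CPM at D6.25 to 33.7 and 53.1 at D6.75 and 4.49 and 2.67 at D10, and Spink1 was at 0.0906 and 0.142 CPM by D10. Scx had 446 and 429 CPM at D6.75, reached 1190 and 1700 at D8.5, and had 858 and 1220 by D10. Foxc2 had 35.8 and 34.7 CPM at D6.25 but 82.8 and 111 by D10. Of the genes that fell, Sp5 was at 7.46 and 6.04 CPM by D6.75, and Tbx6 at 0.412 and 0.643. Pou5f1 kept levels near those of D6.25 until D7.5, with 321 and 381 CPM, and by D10 it had 26.6 and 149.

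**Figure D4:**
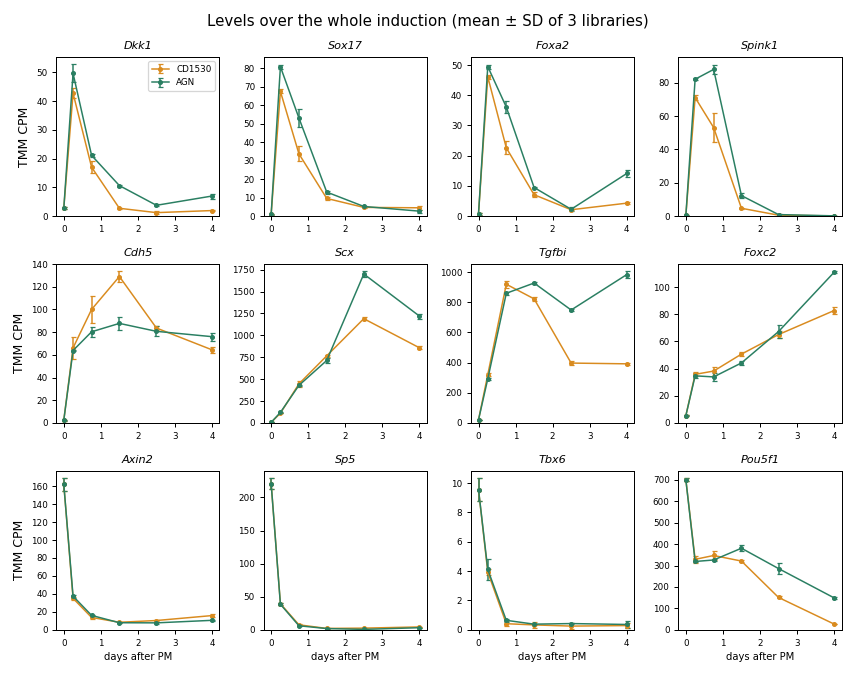
The mean TMM CPM (vertical axes, each from 0) of 12 genes is plotted against days after PM (horizontal axis) for CD1530 and AGN, with the SD of 3 libraries as bars and the PM libraries at day 0 for both. Dkk1, Sox17 and Foxa2 have their highest mean of the first days at 6 h, Scx has its highest at day 2.5, and Axin2, Sp5 and Tbx6 are lower at day 0.75 than at 6 h.

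The ligands differed little at this time. CD1530 and AGN differed in 329 of 17120 genes (1.92%), or in 196 to 339 when 1 library was left out. It was 200 without AGN replicate 1, 196 without AGN replicate 3, 218 without CD1530 replicate 1 and 214 without CD1530 replicate 3. Of the 329, 268 were among the 10664 genes called in the same direction in both, and 131 among the 2613 with a large change.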

How the data were processed

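RNA from embryoid bodies (PM) and monolayers (CD1530 and AGN) was sequenced from kits that do not mark strand. The authors deposited raw counts per gene, made by aligning reads with STAR to GRCm38 and assigning them with featureCounts. Which annotation, strand setting and rule for reads with several alignments were used is not given in the sources used here. The deposited table had been filtered on low counts, since the third-highest library of each gene reached at least 0.611 CPM.

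Counts were analysed with edgeR 4.0.16 in R 4.3.3 (tables: Python 3.11.15). A single model over the 33 libraries held 11 group means and no other term, on TMM-scaled libraries, and was tested by the robust quasi-likelihood F test. The mean of CD1530 and AGN at 6 h, each ligand alone, and their difference were the contrasts. P-values were adjusted by Benjamini-Hochberg over 17120 genes and called under 0.05. The edgeR filter removed no gene. The biological coefficient of variation was 4.68%. The study calls the 3 samples of a group biological replicates, and does not state whether these came from separate differentiations. Between pairs of libraries, the mean chi-square per gene, which grows with spread beyond counting error, differed by group. It was 1.61 to 1.71 for AGN, 2.16 to 3.77 for CD1530 and 3.48 to 4.76 for PM. The p-values rest on the spread among these libraries only. The 17120 gene identifiers all matched GENCODE M21. Promoter sequences and starts are from RefSeq (GRCm38.p6). Promoters on chromosome 18 were left out of the sequences shown and of the motif counts per pathway list. The shares with motifs and the GC and CpG medians were taken without that exclusion. The fit was tested on simulated data. Replicate numbers did not pair the libraries: the correlations of deviations between same-numbered libraries were -0.154 to 0.0426 over 9 pairs.

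Of 408 list entries, 396 were in the deposited table, and only those have values. The lists, the genes named and the comparison were chosen with earlier results of these data known, and the promoter motifs after the values were seen. Named genes were the 12 largest rises and 12 largest falls among genes called in both ligands with a large change, no overlap and a mean of at least 50 counts (predicted genes left out), up to 3 genes a direction in each list, standard pathway readouts, and 4 genes next to the fold threshold. Some of these genes are not reported here. Other members of the lists were named where they are usual markers, after their values were seen. Alternatives were DESeq2 1.42.0 and its size factors, library size only, other filters, a fit that is not robust, the likelihood ratio test, fits of 9 libraries as 3 or 2 groups, the replicate number as a block, other fold thresholds, and each library left out.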

Additional observations from a re-analysis of the deposited data

Results flagged for a closer look

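A difference between the 2 ligand groups at 6 h, tested as a contrast of CD1530 with AGN by edgeR's quasi-likelihood test with Benjamini-Hochberg adjustment over all genes, picked out 23 of the genes named by the rule. Over all genes 329 of 17120 (1.92%) differed. The named genes were chosen in part by the size of their change and include retinoic acid receptor targets. Their count is therefore not to be read as a share against that of all genes. Values are log2 fold changes of CD1530 over AGN.

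Csn3 (2.21, adjusted p = 8.91e-11) and Rarb (2.04, adjusted p = 0.000111) had the largest differences, followed by Cyp26a1 (0.85, adjusted p = 7.76e-16) and Cdx1 (0.8, adjusted p = 3.33e-05). All were higher with the agonist. In Cdx1 this was a smaller fall, to 9.5 ± 0.36 CPM with CD1530 and 5.47 ± 0.13 with AGN.

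Of 9 endothelial and blood markers 2 differed, Etv2 (0.67) and Tal1 (0.44), both higher with CD1530, while the summed level of the list overlapped (320 to 372 CPM with CD1530 and 341 to 344 with AGN). Of 9 endoderm markers 2 differed, Cer1 (-0.63) and Sox17 (-0.26), both lower with CD1530.

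Of the other largest rises Irs4 (-0.43) and Hkdc1 (-0.34) were lower with CD1530. The immediate early and ERK feedback genes Dusp5 (0.33), Junb (0.32), Egr3 (0.3) and Dusp6 (0.17) were higher. The YAP targets Ccn2 (-0.22) and Ccn1 (-0.2) were lower. Cdh11 (0.2) was higher and the epithelial genes Epcam (-0.17) and Cdh1 (-0.16) were lower. Col9a1 (0.25) and Tgfbi (0.13) were higher, and the sterol synthesis genes Dhcr7 (-0.17) and Cyp51 (-0.14) were lower.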

How the results depend on the processing

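The counts of genes called against PM, in both ligands and in either direction, stayed within 1.5 times their values in every alternative run, and with 1 library left out they ran from 11573 to 12173 over both ligands together, from 10094 to 10437 for genes called in the same direction in both, from 2027 to 2126 for large rises and from 513 to 572 for large falls. The fold threshold moved the counts of large changes. At a log2 threshold of 1.5 there were 1269 large rises and 137 large falls, and a test against a fold of 2 (glmTreat) left 223 large falls. The CD1530 and AGN difference at 6 h ran from 196 to 339 genes with 1 library left out, with 200 without AGN replicate 1, 196 without AGN replicate 3, 218 without CD1530 replicate 1 and 214 without CD1530 replicate 3. Scaling by library size only moved the median gene to 0.053 and the higher share of called genes to 55.8%, against 48.6% with DESeq2 size factors. With the replicate number as a block, whose numbers did not pair the libraries, there were 12237 calls over both ligands together, 10618 in both, 2074 large rises, 539 large falls and 329 between ligands, and no library correlated best with its own number. Of the genes named, Fmod had log2 fold changes from -1.42 without PM replicate 3 to 0.02 without PM replicate 1 (adjusted p = 0.978), against -0.98 with all libraries, and lost its call without CD1530 replicate 3. The median of the 2-cell-like list was 0.46 without PM replicate 1. A group at 3 counts or fewer limits the fold changes of the lowest genes.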
